A study of Mus musculus with 15 samples.

Results

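Primary (azurophil) granules are the first granules a neutrophil precursor fills, at the promyelocyte stage, and the 10 genes described here encode proteins of these granules or proteins made at about the same stage. They are Mpo, Elane, Prtn3, Ctsg, Ctsc, Serpinb1a, Hp, Ms4a3, Nkg7 and Igsf6. They were taken by name from a list that was chosen with earlier results of these data known. They were found as 10 of the 20453 genes in the deposited count table, each as 1 RefSeq transcript. All 10 passed the filter on low counts that left 14542 genes to test. They did not move as one set.

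The study sequenced RNA of sorted marrow populations from C57BL/6 mice, in a model of acute myeloid leukaemia driven by the human fusion gene MLL-AF9, which couples the front of a histone methyltransferase to a part of AF9. Its cDNA was placed in mouse cells of the A2Lox-cre targeting system, clones selected there gave chimeric lines, and double heterozygous females of the backcross were used. The 14 libraries compared were 4 LTearly, 3 LTlate, 3 BMTGMP and 4 wtGMP. LT and GMP match the abbreviations used in the sorting scheme for long-term haematopoietic stem cells and granulocyte-macrophage progenitors, and the name wtGMP was read as wild-type GMP. The labels spell out neither "early", "late" nor BMT. They give no age, induction, time or genotype for a single library, and no promoter for the fusion gene. Before sorting, antibodies to Ter119, Gr-1, B220, Cd11b and Cd5 removed mature cells from all marrow. The scheme then describes a gate for GMPs (c-Kit+, Sca-1-, Cd34+, Fc gamma receptor high) and a gate for long-term stem cells (c-Kit+, Sca-1+, Cd34-, Cd48-, Cd150+), without saying which library came from which. LTearly, LTlate and BMTGMP are called the MLL-AF9 groups below.

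Depth on named genes was 2696036 to 8695227 counts in LTearly, 11569325 to 15092528 in LTlate, 4555960 to 10712578 in BMTGMP and 2469452 to 6978682 in wtGMP, so LTlate was the deepest group. Within a group, libraries correlated by rank at 0.861 to 0.903 in LTearly, 0.948 to 0.956 in LTlate, 0.908 to 0.934 in BMTGMP and 0.913 to 0.942 in wtGMP. Another library carries an LTearly title on an LTlate column. It is in no group and its values are given apart. Titles of the MLL-AF9 libraries also carry codes that begin with M and gr, which the labels do not explain. A gr code is shared by LTearly replicate 1 and LTlate replicate 3, by LTearly replicate 3 and LTlate replicate 2, and by BMTGMP replicates 1 and 2. The labels do not state that replicates are separate animals, so the p-values measure the spread between these libraries, which may be technical. Levels are given as CPM, the count of a gene scaled to a common total of counts on named genes. In bulk RNA, fewer cells of a type and less RNA per cell cannot be told apart.

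Myeloperoxidase, the product of Mpo, is a haem enzyme that turns hydrogen peroxide and chloride into hypochlorous acid. Staining for it is a standard sign of the myeloid lineage in leukaemia. Neutrophil elastase (Elane), proteinase 3 (Prtn3) and cathepsin G (Ctsg) are serine proteases that are stored beside it in active form. In mouse and human myeloid cells their genes are known targets of C/EBP, PU.1, MYB and RUNX1 transcription factors. Transcription of the primary granule genes normally stops as cells pass from promyelocyte to myelocyte, when the genes of the later specific and gelatinase granules come on.

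The promoter sequences of 8 of the 10 genes were at hand, as the 250 bases before the RefSeq start on mouse build GRCm38.p6; Hp and Serpinb1a had no entry. They were searched on both strands for GAGGAA (a PU.1 core) and TTNNGNAA (a C/EBP core). Shown are Mpo and the 3 protease genes, which were low together in LTearly and LTlate, and Igsf6, which was not low. Each is written 5′ to 3′ on the strand of its gene, with the matches to either motif in capitals.

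Mpo, chr11:87793534-87793783, plus strand: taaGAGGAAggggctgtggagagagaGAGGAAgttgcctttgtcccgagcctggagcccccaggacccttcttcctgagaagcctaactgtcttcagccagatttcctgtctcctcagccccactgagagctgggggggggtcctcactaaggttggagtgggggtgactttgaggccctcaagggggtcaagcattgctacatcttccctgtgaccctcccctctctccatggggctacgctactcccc
Elane, chr10:79886062-79886311, plus strand: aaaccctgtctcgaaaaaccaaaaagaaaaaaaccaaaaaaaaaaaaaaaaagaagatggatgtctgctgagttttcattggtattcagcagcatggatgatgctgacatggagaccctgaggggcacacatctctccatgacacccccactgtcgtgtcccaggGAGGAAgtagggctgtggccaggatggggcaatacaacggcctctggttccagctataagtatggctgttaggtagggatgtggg
Prtn3, chr10:79879417-79879666, plus strand: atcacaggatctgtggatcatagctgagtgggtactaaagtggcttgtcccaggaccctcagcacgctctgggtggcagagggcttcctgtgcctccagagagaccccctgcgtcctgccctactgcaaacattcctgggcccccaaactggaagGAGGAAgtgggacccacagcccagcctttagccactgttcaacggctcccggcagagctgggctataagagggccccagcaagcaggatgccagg
Ctsg, chr14:56102575-56102824, minus strand: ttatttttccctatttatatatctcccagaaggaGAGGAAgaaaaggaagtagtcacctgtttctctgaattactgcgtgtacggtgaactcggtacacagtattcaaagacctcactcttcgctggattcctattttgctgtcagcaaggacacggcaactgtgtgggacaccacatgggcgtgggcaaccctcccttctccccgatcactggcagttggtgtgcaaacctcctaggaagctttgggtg
Igsf6, chr7:121074531-121074780, minus strand: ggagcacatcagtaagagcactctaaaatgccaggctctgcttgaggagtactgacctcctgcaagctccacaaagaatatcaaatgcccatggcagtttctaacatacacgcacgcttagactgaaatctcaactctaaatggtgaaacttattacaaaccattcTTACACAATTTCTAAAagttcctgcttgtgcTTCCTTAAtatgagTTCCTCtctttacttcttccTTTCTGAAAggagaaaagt

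GAGGAA was found in 6 of the 8 windows, against 23.25% of 32851 mouse promoter windows of that length. In Mpo it began 247 and 224 bases before the start, in Elane 85, in Prtn3 95, in Ctsg 216 and in Igsf6 39 bases before it. The sixth gene was Ctsc, with 2 matches, and Nkg7 and Ms4a3 had none. TTNNGNAA was found in 2 of the 8, against 36.85% of all windows, with 5 matches in Igsf6 and 1 in Ms4a3. The Igsf6 matches 19 and 18 bases before the start overlap each other, and no match to one motif overlapped a capitalised match to the other. Of 3 further motifs, the MYB core AACNG was in 7 of 8 windows (74.19% of all), the RUNX core TGTGGT in Nkg7 and Ctsg (14.05% of all), and TATAAA on the gene strand in 0 (7.592% of all). A match of letters describes the window and is not a measured binding site.

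Against wtGMP, Mpo and the 3 serine protease genes were lower in LTearly and, with Elane just short of the threshold, in LTlate, while Hp was higher in all 3 MLL-AF9 groups. A gene was called when its adjusted p was below 0.05 in edgeR's quasi-likelihood test, with Benjamini-Hochberg adjustment over all genes tested. In LTearly 8 of the 10 genes were called, 3 higher (Hp, Serpinb1a, Igsf6) and 5 lower (Mpo, Elane, Prtn3, Ctsg, Ms4a3), where 10.7% of all tested genes were called higher and 9.46% lower (20.2% in either direction). In LTlate 5 were called, 2 higher (Hp, Serpinb1a) and 3 lower (Mpo, Prtn3, Ctsg), against 7.65% and 3.01% of all genes (10.7% in either direction). In BMTGMP 3 were called, Hp and Igsf6 higher and Nkg7 lower, against 4.35% and 2.17% of all genes (6.51% in either direction). The median log2 fold change of the 10 genes was -1.33 in LTearly, -1.30 in LTlate and -0.40 in BMTGMP, where that of all tested genes was 0.19, 0.01 and 0.06. These comparisons share the 4 wtGMP libraries. The 10 genes, and the related lists below, were chosen with earlier results of these data known. Their counts beside the shares of all genes are therefore descriptions and no test of the lists. Fitting only the LTlate and wtGMP libraries gave 8 called genes in place of 5, while calls over all genes also rose, from 1549 to 2486. Fitting only the BMTGMP and wtGMP libraries gave 6 in place of 3. The calls over all genes in that fit are not given here, so the 6 has no background.

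**Figure D1:**
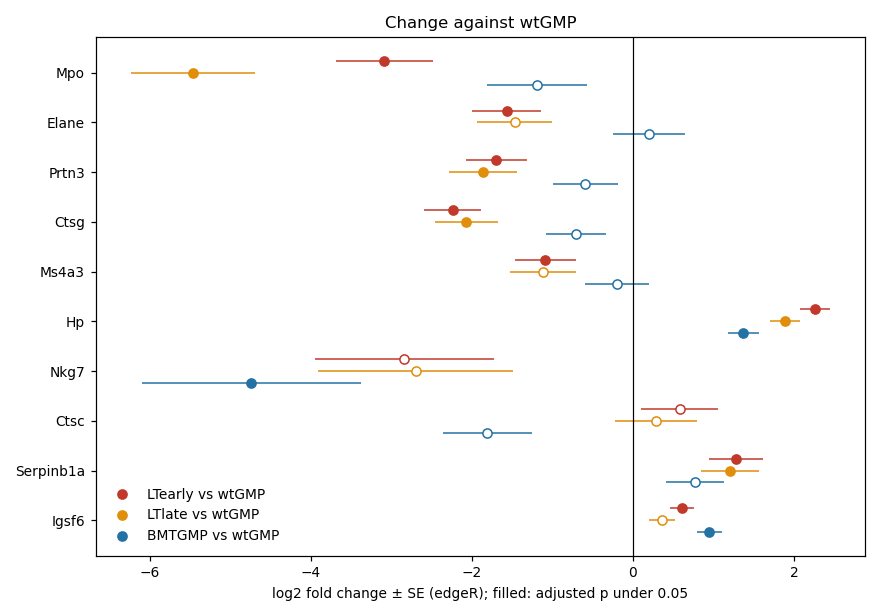
Log2 fold change against wtGMP (x axis, with standard error from edgeR) of each of the 10 genes in LTearly, LTlate and BMTGMP. Filled points have an adjusted p below 0.05. Mpo lies at -3.09, -5.47 and -1.19, and Hp at 2.26, 1.89 and 1.37.

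Mpo was 8.54-fold lower in LTearly and 44.4-fold lower in LTlate than in wtGMP. It had 572, 1984, 944 and 4681 CPM in the 4 LTearly libraries. The LTlate libraries had 239, 391 and 519 CPM and the BMTGMP libraries 5748, 9087 and 8706 CPM. The wtGMP libraries had 19171, 18451, 15468 and 16547 CPM. No library of an MLL-AF9 group reached a wtGMP library, and the LTlate, LTearly and BMTGMP groups followed one another upwards with no overlap. Means were 2045 ± 1856 (SD, n = 4), 383 ± 140 (n = 3) and 7847 ± 1828 (n = 3) CPM in LTearly, LTlate and BMTGMP, against 17409 ± 1703 (n = 4) in wtGMP. By edgeR's quasi-likelihood test the log2 fold change was -3.09 ± 0.60 (SE, adjusted p = 0.00415) in LTearly and -5.47 ± 0.77 (adjusted p = 0.000894) in LTlate. Both calls held under all alternatives run. Without LTearly replicate 4, the library with the most Mpo, the LTearly value was -3.92, or 15.1-fold lower. In BMTGMP it was -1.19 ± 0.62 with an adjusted p of 0.325 by edgeR, so the lower level was not called. With only the BMTGMP and wtGMP libraries in the fit that p was 3.87e-05, and over 15 alternatives it ran from 3.87e-05 to 0.530. The exons of Mpo overlap those of Gm11505 on the other strand, which has no row in the table.

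Elane differed from Mpo in BMTGMP. It had 116, 313, 190 and 615 CPM in LTearly and 343, 277 and 347 CPM in LTlate. In BMTGMP it had 936, 1384 and 923 CPM, against 1046, 881, 886 and 835 CPM in wtGMP. Every LTearly and LTlate library lay below every wtGMP library, whereas the BMTGMP libraries lay among or above them. In LTearly Elane fell by 1.57 ± 0.43 on the log2 scale (edgeR adjusted p = 0.0239). Leaving out LTearly replicate 2, LTearly replicate 3 or wtGMP replicate 3 gave 0.0567, 0.0608 and 0.0501, the range over 16 alternatives being 1.82e-05 to 0.0608. Without LTearly replicate 4 the log2 fold change was -2.16. In LTlate the log2 fold change was -1.47 ± 0.47 and missed the threshold (edgeR adjusted p = 0.0776). There it was called by DESeq2 (adjusted p = 0.00701) and with only the LTlate and wtGMP libraries fitted (5.88e-08), the range over 15 alternatives being 5.88e-08 to 0.249. In BMTGMP it was 0.20 with an edgeR adjusted p of 0.896.

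Prtn3 and Ctsg were low in the same groups. Prtn3 had 29.2, 123, 98.3 and 147 CPM in LTearly, 87.2, 77.9 and 93.3 CPM in LTlate and 188, 249 and 219 CPM in BMTGMP, against 214, 318, 399 and 347 CPM in wtGMP. Its LTearly and LTlate libraries lay below all of wtGMP and its BMTGMP libraries overlapped wtGMP. It fell by 1.70 ± 0.38 in LTearly (edgeR adjusted p = 0.00559) and by 1.86 ± 0.42 in LTlate (adjusted p = 0.0106). The LTlate call was lost without LTlate replicate 2, 3 or 4 (0.0683, 0.0659 and 0.0509). Ctsg had 138, 283, 155 and 478 CPM in LTearly, 218, 303 and 345 CPM in LTlate and 887, 616 and 832 CPM in BMTGMP, against 1336, 1226, 1260 and 1122 CPM in wtGMP. Here the BMTGMP libraries too lay below all of wtGMP. It fell by 2.24 ± 0.35 in LTearly (edgeR adjusted p = 0.000576) and by 2.07 ± 0.39 in LTlate (adjusted p = 0.00378), and both calls held under all alternatives run. In BMTGMP its log2 fold change was -0.71 ± 0.37 and was not called (edgeR adjusted p = 0.317), though it was called with only the BMTGMP and wtGMP libraries fitted (adjusted p = 0.00344, range over 15 alternatives 0.00344 to 0.579). Prtn3 gave -0.59 there (edgeR adjusted p = 0.466).

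**Figure D2:**
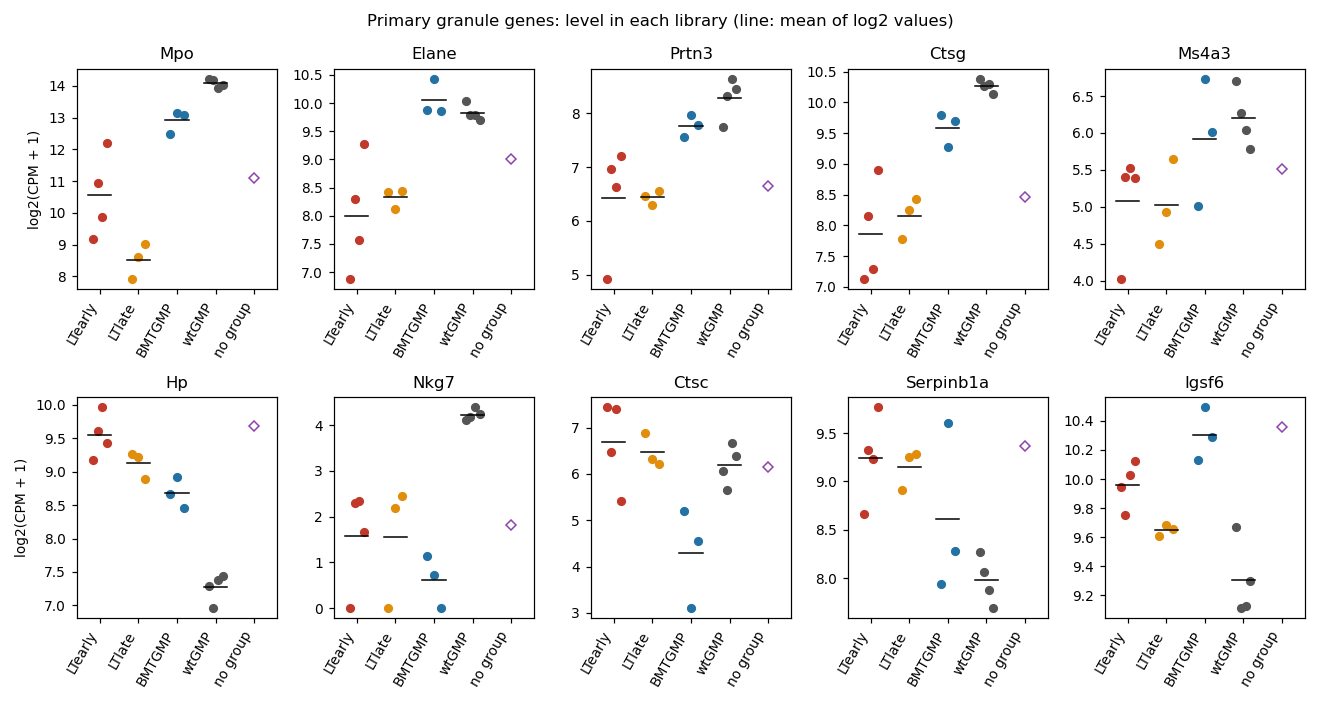
Level of each of the 10 genes, as log2(CPM + 1) on the y axis, in every library by group; each point is 1 library, the line is the mean of the log2 values, and the open diamond is the library in no group. Mpo, Elane, Prtn3 and Ctsg are lowest in LTearly or LTlate, and Hp is lowest in wtGMP.

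The 4 LTearly libraries stood in the same order for these 4 genes. LTearly replicate 1 was the lowest for each of Mpo, Elane, Prtn3 and Ctsg and replicate 4 the highest. Replicate 4 was also the deepest library of the group, and it had the group's highest Kit (89.8 CPM, the others 27.2 to 55.0) and Cd34 (61.6 CPM, the others 13.0 to 40.1) and its lowest Itgam (848 CPM, the others 1363 to 1730). The 8 genes listed for the sorting gates, Kit and Cd34 among them, did not set replicate 4 apart as a sum. They came to 605 CPM there and to 602, 442 and 615 CPM in replicates 1, 2 and 3. Kit and Cd34 mark progenitors, and Itgam encodes Cd11b, the myeloid surface protein used for depletion. Whether these differences bear on the spread of the granule genes was not tested.

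Ctsc encodes cathepsin C (dipeptidyl peptidase I), the enzyme that cuts the propeptide off the serine proteases, and Serpinb1a encodes an inhibitor of elastase, cathepsin G and proteinase 3. Neither followed the proteases. Ctsc had 172, 88.3, 168 and 41.4 CPM in LTearly, 117, 78.7 and 73.5 CPM in LTlate and 35.8, 7.58 and 22.6 CPM in BMTGMP, against 66.1, 49.4, 101 and 82.6 CPM in wtGMP. The BMTGMP libraries were below all others in the 4 groups. Its log2 fold changes were 0.58 ± 0.48 in LTearly and 0.29 in LTlate (edgeR adjusted p = 0.457 and 0.828), and -1.81 ± 0.55 in BMTGMP (adjusted p = 0.0752). DESeq2 called the BMTGMP difference (adjusted p = 0.00360), as did fits with thinned libraries (0.0230), only BMTGMP and wtGMP (0.0131) or without BMTGMP replicate 1 (0.0371), the range over 15 alternatives being 0.00360 to 0.283. In LTearly, the highest Ctsc stood in replicates 1 and 3, the lowest in Mpo, and the lowest Ctsc in replicate 4, the highest in Mpo.

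Serpinb1a had 406, 639, 599 and 868 CPM in LTearly, 481, 608 and 624 CPM in LTlate and 246, 778 and 310 CPM in BMTGMP, against 309, 266, 235 and 206 CPM in wtGMP. All LTearly and LTlate libraries were above all of wtGMP, and BMTGMP replicate 2 stood far above its group's other libraries. It rose by 1.28 ± 0.34 on the log2 scale in LTearly (edgeR adjusted p = 0.0153), under all alternatives run, and by 1.20 ± 0.36 in LTlate (adjusted p = 0.0471). The LTlate call was lost without any 1 of the 3 LTlate libraries (adjusted p = 0.104 to 0.154), without any 1 of the 4 wtGMP libraries (0.0517 to 0.114) and under 3 other alternatives, the range over 15 being 2.97e-06 to 0.154. In BMTGMP the log2 fold change was 0.77 (edgeR adjusted p = 0.257). Its counts were not whole in 10 of the 15 libraries, so some reads were shared with other loci. Among other inhibitors of granule proteases, Cst7 (cystatin F, an inhibitor of cathepsin C) fell in all 3 MLL-AF9 groups, by 2.78 ± 0.44 in LTearly, 2.10 ± 0.46 in LTlate and 2.12 ± 0.47 in BMTGMP (edgeR adjusted p = 5.51e-05, 0.00345 and 0.00489).

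Hp encodes haptoglobin, which binds free haemoglobin. Human neutrophils keep it in specific rather than primary granules. It had 578, 777, 992 and 686 CPM in LTearly, 616, 595 and 472 CPM in LTlate and 404, 485 and 349 CPM in BMTGMP, against 156, 124, 166 and 172 CPM in wtGMP. Every library of an MLL-AF9 group was above every wtGMP library, and every LTearly library was above every BMTGMP library. It rose by 2.26 ± 0.19 on the log2 scale in LTearly (edgeR adjusted p = 1.31e-09), 1.89 ± 0.19 in LTlate (adjusted p = 1.02e-07) and 1.37 ± 0.19 in BMTGMP (adjusted p = 2.05e-05). All 3 calls held under all alternatives run, and the standard errors are the smallest of the 10 genes after Igsf6.

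Igsf6, an immunoglobulin-family membrane protein of myeloid cells, was highest in BMTGMP. It had 983, 860, 1043 and 1113 CPM in LTearly, 778, 820 and 807 CPM in LTlate and 1121, 1440 and 1250 CPM in BMTGMP, against 815, 552, 558 and 629 CPM in wtGMP. The LTearly and BMTGMP libraries were above all of wtGMP, and the LTlate libraries overlapped wtGMP replicate 1. It rose by 0.61 ± 0.15 in LTearly (edgeR adjusted p = 0.00459) and by 0.95 ± 0.16 in BMTGMP (adjusted p = 0.000276), both under all alternatives run, and gave 0.36 ± 0.16 in LTlate (adjusted p = 0.180). The gene lies within the span of Mettl9 with no shared exon, and Mettl9 averaged 39.9, 15.0 and 20.9 CPM in LTearly, LTlate and BMTGMP, against 12.1 CPM in wtGMP. Igsf6 counts were not whole in 4 of the 15 libraries, so some of its reads were shared with other loci.

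Ms4a3 encodes a membrane protein of the MS4A family made in granulocyte-monocyte progenitors. It had 15.2, 41.4, 44.9 and 41.1 CPM in LTearly, 21.5, 29.5 and 49.3 CPM in LTlate and 31.3, 106 and 63.4 CPM in BMTGMP, against 104, 76.1, 64.8 and 54.0 CPM in wtGMP. LTearly and LTlate lay below all of wtGMP, and BMTGMP had libraries below, within and above the range of wtGMP. It fell by 1.09 ± 0.38 in LTearly (edgeR adjusted p = 0.0458). That call held under 5 of 16 alternatives (adjusted p 0.0298 to 0.144). It was lost without LTearly replicate 1, 2, 3 or 4 (0.0997, 0.0708, 0.0655 and 0.0554) and without wtGMP replicate 1, 2 or 3 (0.144, 0.0855 and 0.0801). In LTlate the log2 fold change was -1.12 ± 0.41 (adjusted p = 0.0911), which passed without LTlate replicate 4 (0.0389) and with only LTlate and wtGMP fitted (0.00727, range over 15 alternatives 0.00727 to 0.337). In BMTGMP it was -0.20 (adjusted p = 0.874).

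Nkg7, a membrane protein best known from the cytotoxic granules of NK and T cells, had low counts everywhere. It had 0, 15, 11 and 19 counts in LTearly, 0, 41 and 68 in LTlate and 13, 5 and 0 in BMTGMP, against 113, 42, 92 and 58 in wtGMP. As levels these are 0 to 4.08 CPM in LTearly, 0 to 4.51 CPM in LTlate and 0 to 1.21 CPM in BMTGMP, against 16.2 to 19.9 CPM in wtGMP, with no overlap. In LTearly replicate 1, LTlate replicate 2 and BMTGMP replicate 4, where no read was counted, 3 counts would come to 0.749, 0.237 and 0.659 CPM. It fell by 4.74 ± 1.36 on the log2 scale in BMTGMP (edgeR adjusted p = 0.0329), a call that held under 7 of 15 alternatives (adjusted p 0.000577 to 0.112). It was lost without BMTGMP replicate 2 or 4 (0.112 and 0.109) and without wtGMP replicate 1, 2, 3 or 4 (0.0730, 0.0605, 0.0831 and 0.0715). The call was also lost with the transcripts of each gene summed (0.0810) and with a replicate block in the fit (0.0998). The log2 fold change was -5.57 without BMTGMP replicate 1 and -5.75 with thinned libraries. In LTearly and LTlate the log2 fold changes were -2.84 ± 1.11 and -2.70 ± 1.21 (edgeR adjusted p = 0.0709 and 0.172). The 10 T and NK cell markers summed to 8.74 to 30.4 CPM in LTearly, 3.54 to 9.67 in LTlate and 5.97 to 9.93 in BMTGMP, against 2.81 to 19.8 CPM in wtGMP, where the markers Cd3e, Cd3g, Prf1, Klrb1c and Klrd1 had no count.

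Mpo lost its lead in LTlate. Per kilobase of transcript, wtGMP had Mpo first (6331 ± 619 CPM per kb, SD, n = 4), then Ctsg (1233 ± 88.7) and Elane (927 ± 93.9), each apart from the next by more than their SDs. BMTGMP had Mpo (2853 ± 665), Elane (1098 ± 267) and Ctsg (777 ± 143), of which Elane and Ctsg were closer than their summed SDs. In LTearly the highest mean was that of Mpo (744 ± 675), with Hp (564 ± 131) and Igsf6 (460 ± 49.3) within its spread, and that place rested on replicate 4, at 1702 CPM per kb. Without it Mpo averaged 424 CPM per kb, below Hp (582) and Igsf6 (442). In LTlate Mpo was sixth (139 ± 51.0), below Hp (417 ± 57.9), Igsf6 (369 ± 9.85), Elane (327 ± 39.9), Serpinb1a (298 ± 40.8) and Ctsg (288 ± 64.7). Nkg7 came last in all 4 groups. The order of Elane, Serpinb1a and Ctsg in LTlate is within their SDs.

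Ratios within a library, which no scaling between libraries can move, also differed between groups. Mpo gave 4.92 to 7.62 counts per Elane count in LTearly, 0.698 to 1.50 in LTlate and 6.14 to 9.43 in BMTGMP, against 17.5 to 20.95 in wtGMP. LTlate and wtGMP stood apart from all other libraries, and LTearly and BMTGMP overlapped. Of the summed counts of the 10 genes Mpo took 19.0% to 54.0% in LTearly, 8.25% to 15.6% in LTlate and 59.9% to 68.7% in BMTGMP, against 80.7% to 84.0% in wtGMP. The 10 genes together took 0.301% to 0.867% of the counts in LTearly, 0.290% to 0.333% in LTlate and 0.960% to 1.42% in BMTGMP, against 1.92% to 2.32% in wtGMP. The proteases shifted less among themselves. Ctsg gave 0.777 to 1.19 counts per Elane count in LTearly, 0.635 to 1.10 in LTlate and 0.445 to 0.948 in BMTGMP, against 1.28 to 1.42 in wtGMP, and the Prtn3 to Elane ratio of each MLL-AF9 group overlapped that of wtGMP.

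**Figure D3:**
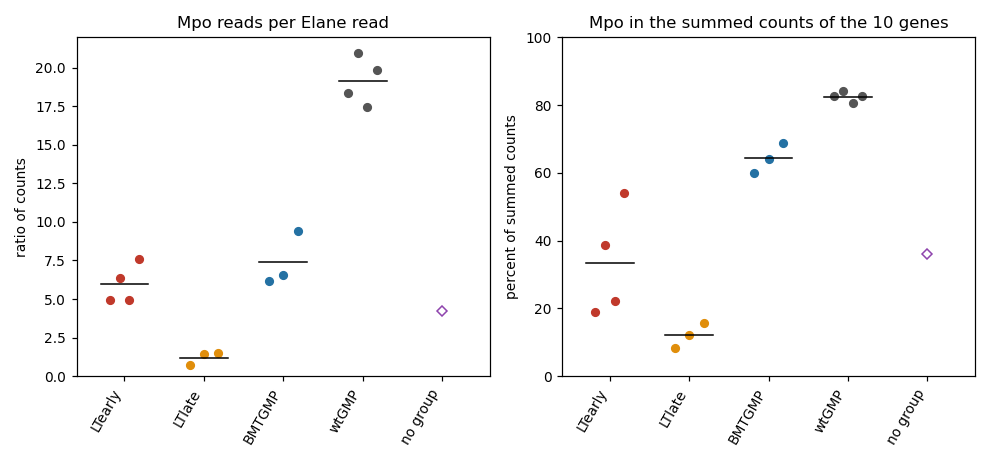
Mpo counts per Elane count (left) and Mpo in percent of the summed counts of the 10 genes (right), by group; each point is 1 library, the line is the group mean and the open diamond is the library in no group. The LTlate libraries lie at 0.698 to 1.50 and the wtGMP libraries at 17.5 to 20.95 in the left panel.

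Among the MLL-AF9 groups, LTearly against LTlate gave 0 called genes of the 10 by edgeR, where 0.124% of all tested genes were called higher and 0.138% lower (0.261% in either direction). Mpo had the lowest unadjusted p of the 10 genes by edgeR (0.00435). Its log2 fold change was 2.38 ± 0.65, 5.20-fold, with every LTearly library above every LTlate library, and an adjusted p of 0.203 by edgeR and 0.00397 by DESeq2 (range over 15 alternatives 0.00397 to 0.572). LTearly against BMTGMP gave 4 called genes, Ctsc and Hp higher and Elane and Ctsg lower, where 3.27% of all genes were called higher and 3.03% lower (6.31% in either direction). Ctsc was higher by 2.39 ± 0.56 and Hp by 0.88 ± 0.20 (edgeR adjusted p = 0.0242 and 0.00600). Elane was lower, at -1.78 ± 0.45, and Ctsg at -1.53 ± 0.37 (adjusted p = 0.0423 and 0.0274). All 4 calls were lost with only LTearly and BMTGMP in the fit (adjusted p = 0.0733, 0.0514, 0.127 and 0.0783 in that order). Elane was also lost with the filter of 1 CPM and with no filter (0.0503 and 0.0601), and Ctsg with no filter (0.0542). Each of Elane, Ctsg and Ctsc was lost without certain single libraries. For Elane these were BMTGMP replicate 1, 2 or 4 (0.0930, 0.158 and 0.0940) and LTearly replicate 2 or 3 (0.0911 and 0.0943). For Ctsg they were BMTGMP replicate 1, 2 or 4 (0.104, 0.0552 and 0.116) and LTearly replicate 2 (0.0600), and for Ctsc BMTGMP replicate 4 (0.126) and LTearly replicate 1 or 3 (0.0535 and 0.0550). Elane gave -2.38 without LTearly replicate 4, and Ctsc 2.99 without BMTGMP replicate 1. Mpo was not called in that comparison (-1.90 ± 0.60, edgeR adjusted p = 0.105), but was without LTearly replicate 4 (-2.73 ± 0.44, adjusted p = 0.00419) and by DESeq2 (0.0167). LTlate against BMTGMP gave 1 called gene, Mpo, lower by 4.28 ± 0.74 (19.4-fold, edgeR adjusted p = 0.0136), where 1.64% of all genes were called higher and 0.447% lower (2.08% in either direction). That call was lost without LTlate replicate 2 or 3 (adjusted p = 0.0895 and 0.0731). In that comparison DESeq2 called 6 of the 10 genes, and over all genes it called 569 in place of 303.

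Likeness of pattern was measured as the root mean square difference of log2 CPM profiles over the 14 libraries, each profile centred on its own mean, which describes these libraries and shares their depth and sorting. The closest pairs among the 10 genes were Elane with Ctsg (0.45), Elane with Prtn3 (0.46) and Prtn3 with Ctsg (0.49), followed by Hp with Serpinb1a (0.57). Of all 14542 tested genes, Ctsg and Prtn3 were also the 2 closest to Elane, with Ankrd26 next at 0.47. The nearest genes to Mpo were Igfbp4 (1.04), Kit (1.10) and Tmem9 (1.10). The measure is not scaled, so a gene with larger changes, such as Mpo, tends to lie further from other genes. Hp was closest to Vsir (0.23), Sec14l1 (0.24) and Cnn2 (0.28). The nearest genes to Prtn3 were Fkbp4 (0.38), Cenph (0.43) and Ahcy (0.44), and to Ctsg Bzw2 (0.41), Idh2 (0.41) and Fkbp4 (0.43).

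In the gene order of GRCm38.p6, Prtn3 and Elane are direct neighbours on chromosome 10, and the genes around them were read for comparison. On the Prtn3 side, Plppr3 fell in LTearly (-1.40, edgeR adjusted p = 0.00120) and LTlate (-1.25, adjusted p = 0.0112) and gave -1.03 in BMTGMP (adjusted p = 0.0563), and Ptbp1 fell in LTearly (-0.95, adjusted p = 0.000437). On the Elane side, Cfd averaged at most 2.03 CPM in a group and was not tested, Med16 was not called in any of the 3 comparisons with wtGMP, and R3hdm4 rose in LTearly (1.09, adjusted p = 0.00989). Beside Mpo on chromosome 11, Tspoap1 fell in LTearly (-0.88, adjusted p = 0.00127) and rose in BMTGMP (1.20, adjusted p = 0.000212), and Rnf43 rose in BMTGMP (1.93, adjusted p = 0.00717). Lpo and Epx, the peroxidase genes next to Mpo, averaged 3.74 and 5.83 CPM in LTearly, 1.58 and 6.95 CPM in LTlate and 2.20 and 0 CPM in BMTGMP, against 4.34 and 33.6 CPM in wtGMP. Beside Ctsg on chromosome 14, Mcpt8 averaged 2.98 CPM in LTearly, 8.64 in LTlate and 3.97 in BMTGMP, against 22.2 CPM in wtGMP, and the other 5 neighbours averaged at most 1.39 CPM in every group. Epx and Mcpt8 are markers of eosinophils and basophils. The 11 markers of eosinophils, basophils and mast cells summed to 27.5 to 77.9 CPM in LTearly, 109 to 371 in LTlate and 13.6 to 17.1 in BMTGMP, against 179 to 290 CPM in wtGMP. Most of the LTlate sum was Prg2 (mean 191 CPM, against 107 CPM in wtGMP). Of the 10 markers tested, 0 were called higher and 1 lower (Prss34) in LTlate by edgeR, against 7.65% and 3.01% of all genes.

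The genes of the later granules rose. All 13 specific and gelatinase granule genes rose in LTearly and in LTlate, and 11 of 13 rose in BMTGMP, all by edgeR against wtGMP (10.7%, 7.65% and 4.35% of all genes were called higher). Their median log2 fold change was 7.62, 5.89 and 4.97 in these groups. The list of 13 also holds S100a8, S100a9 and Ltb4r1, which do not encode granule contents. S100a9 had the highest mean of the 13 in LTearly (8867 CPM), LTlate (2333 CPM) and BMTGMP (1375 CPM) and is part of their sum. Ltf (lactoferrin) averaged 3463 ± 1231 CPM in LTearly, 918 ± 280 CPM in LTlate and 631 ± 465 CPM in BMTGMP, against 13.7 ± 6.88 CPM in wtGMP (SD, n = 4, 3, 3 and 4). Ngp and Camp, an antimicrobial peptide gene, rose with it, by 8.17 ± 0.65 and 8.88 ± 0.79 on the log2 scale in LTearly (edgeR adjusted p = 8.30e-06 and 1.96e-05). In BMTGMP, Mmp8 and Retnlg were not called (2.90 ± 1.0 and 2.50 ± 1.17, edgeR adjusted p = 0.138 and 0.278). The 13 genes summed to 19390 to 31250 CPM in LTearly, 5720 to 12851 CPM in LTlate and 1841 to 9663 CPM in BMTGMP, against 86.3 to 233 CPM in wtGMP, so that this sum exceeded that of the 10 primary granule genes in every LTearly library (3010 to 8672 CPM) and every LTlate library (2900 to 3334 CPM), and in no BMTGMP library (9598 to 14152 CPM) and no wtGMP library (19158 to 23233 CPM).

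**Figure D4:**
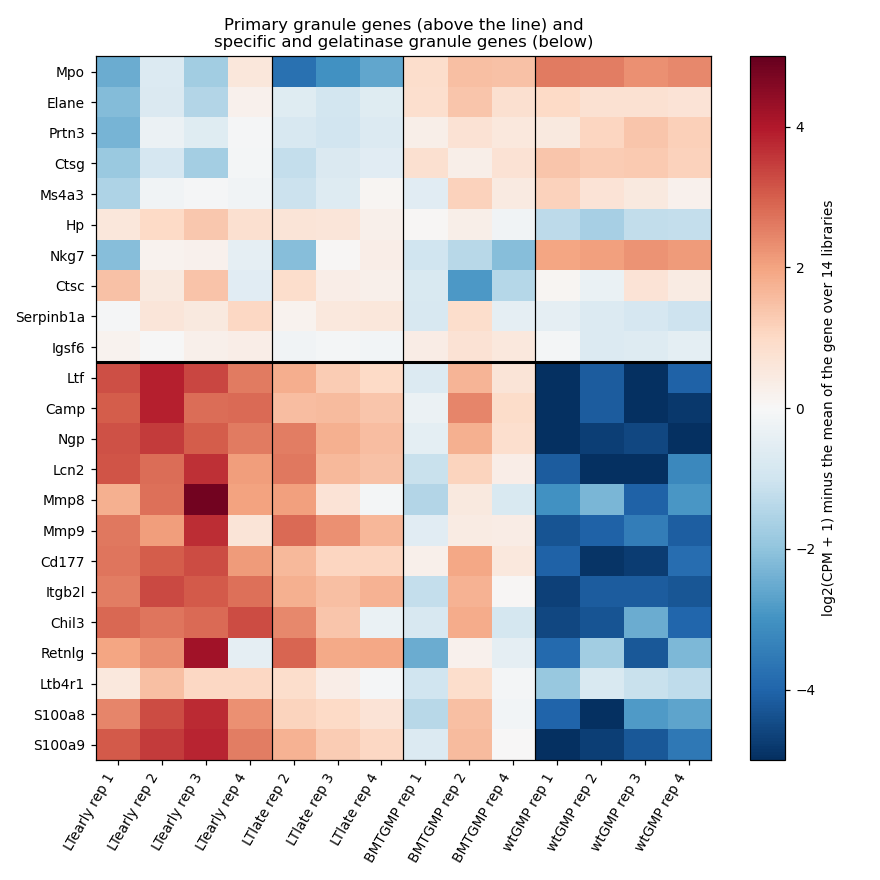
Level of the 10 primary granule genes (above the line) and the 13 specific and gelatinase granule genes (below it) in each of the 14 libraries, as log2(CPM + 1) minus the gene's mean over these libraries, red for higher and blue for lower. Mpo, Elane, Prtn3 and Ctsg are highest in wtGMP or BMTGMP, where the 13 later granule genes are lowest or intermediate, and Hp, as those 13, is lowest in wtGMP.

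Of 10 genes for other contents of the azurophil granule, 3 rose and 2 fell in LTearly, where 10.7% of all tested genes rose and 9.46% fell. In LTlate 3 rose and 0 fell (7.65% and 3.01% of all genes), and in BMTGMP 2 rose and 0 fell (4.35% and 2.17%). Lyz1 and Lyz2, the lysozyme genes, rose in all 3 groups. Lyz2 averaged 5115 ± 1143 CPM in LTearly, 3494 ± 772 CPM in LTlate and 1558 ± 400 CPM in BMTGMP, against 475 ± 83.8 CPM in wtGMP (SD, n = 4, 3, 3 and 4; edgeR adjusted p = 1.72e-10, 4.32e-09 and 1.60e-05). The lysozyme genes are near copies and can share reads. Gusb and Plac8 fell in LTearly (-0.77 ± 0.23 and -1.11 ± 0.32 on the log2 scale, edgeR adjusted p = 0.0149 and 0.0217). Srgn, the proteoglycan core that packs the proteases, averaged 528 CPM in LTearly, 533 CPM in LTlate and 509 CPM in BMTGMP, against 572 CPM in wtGMP (log2 fold changes -0.16 ± 0.19, -0.07 ± 0.20 and -0.21 ± 0.20, none called).

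Among chaperones and haem enzymes that myeloperoxidase needs, more genes fell than rose. Of 12 such genes 0 rose and 6 fell in LTearly, 0 rose and 3 fell in LTlate, and 1 rose and 2 fell in BMTGMP, against 10.7% and 9.46%, 7.65% and 3.01%, and 4.35% and 2.17% of all genes called higher and lower. Calr (calreticulin), which binds newly made myeloperoxidase, averaged 6733 ± 1105 CPM in LTearly, 8700 ± 1497 CPM in LTlate and 10552 ± 1820 CPM in BMTGMP, against 25223 ± 4285 CPM in wtGMP (SD, n = 4, 3, 3 and 4). It fell by 1.94 ± 0.17, 1.51 ± 0.19 and 1.30 ± 0.18 on the log2 scale (edgeR adjusted p = 3.58e-09, 1.67e-06 and 2.32e-05). Canx (calnexin) fell by 1.03 ± 0.16, 0.75 ± 0.17 and 0.59 ± 0.17 (adjusted p = 2.04e-05, 0.00297 and 0.0294). Cpox, an enzyme of haem synthesis, fell in LTearly and LTlate (-1.09 ± 0.33 and -1.67 ± 0.37, adjusted p = 0.0191 and 0.00261), and Fech, which inserts the iron, rose in BMTGMP (1.64 ± 0.32, adjusted p = 0.000988).

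Of 12 transcription factors of the programme, 4 rose and 1 fell in LTearly (10.7% and 9.46% of all tested genes), 3 rose and 0 fell in LTlate (7.65% and 3.01%), and 4 rose and 1 fell in BMTGMP (4.35% and 2.17%). Cebpa, which drives the granulocytic programme of GMPs, averaged 51.0 ± 25.2 CPM in LTearly, 83.4 ± 3.96 CPM in LTlate and 84.4 ± 18.1 CPM in BMTGMP, against 123 ± 12.3 CPM in wtGMP (SD, n = 4, 3, 3 and 4). It fell in LTearly by 1.28 ± 0.29 (edgeR adjusted p = 0.00239) and gave -0.53 ± 0.31 and -0.59 ± 0.31 in LTlate and BMTGMP (adjusted p = 0.312 and 0.306). Cebpe, which turns on the specific granule genes, rose by 2.14 ± 0.44, 1.77 ± 0.45 and 1.98 ± 0.45 in LTearly, LTlate and BMTGMP (adjusted p = 0.00268, 0.0197 and 0.0154), and Cebpb rose by 2.15 ± 0.30, 1.31 ± 0.31 and 1.21 ± 0.31 (adjusted p = 1.41e-05, 0.00562 and 0.0158). Klf5 rose in all 3 groups and averaged 35.3, 15.9 and 12.9 CPM, against 1.36 CPM in wtGMP. Spi1, the gene of PU.1, rose in LTearly (0.88 ± 0.22, adjusted p = 0.00406). In BMTGMP Gfi1 rose by 2.04 ± 0.33 (adjusted p = 0.000405) and Irf8, a factor of the monocytic side, fell by 2.33 ± 0.50 (adjusted p = 0.0133). Gfi1 was also lower in LTearly than in BMTGMP (-1.68 ± 0.32, adjusted p = 0.00363).

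**Figure D5:**
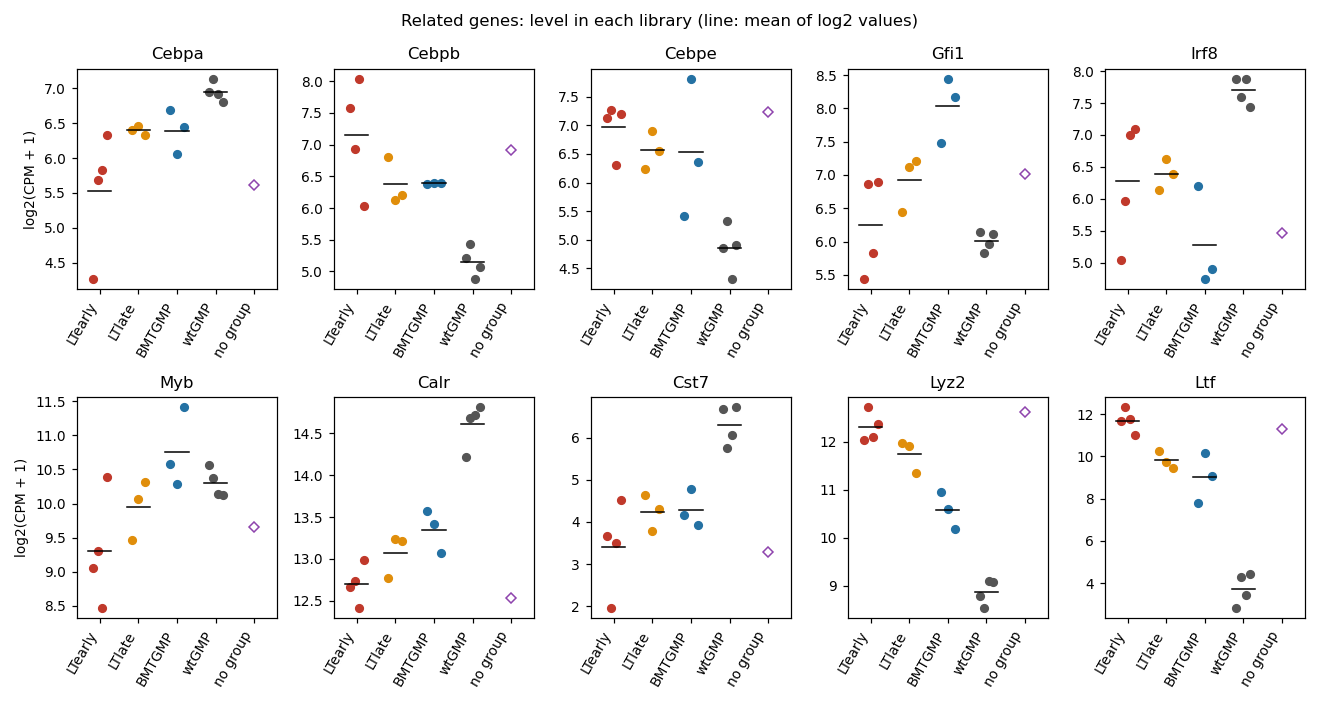
Level of 10 related genes, as log2(CPM + 1) on the y axis, in every library by group; each point is 1 library, the line is the mean of the log2 values and the open diamond is the library in no group. Calr and Cst7 are highest in wtGMP, Lyz2 and Ltf lowest there, and Gfi1 is highest in BMTGMP.

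Of 10 inhibitors of granule proteases, 4 rose and 1 fell in LTearly (10.7% and 9.46% of all tested genes), 3 rose and 1 fell in LTlate (7.65% and 3.01%), and 2 rose and 2 fell in BMTGMP (4.35% and 2.17%). Slpi, a secreted inhibitor of elastase and cathepsin G, differed in direction between groups. It rose by 1.58 ± 0.41 in LTearly and 2.55 ± 0.44 in LTlate and fell by 2.53 ± 0.49 in BMTGMP (edgeR adjusted p = 0.0127, 0.00129 and 0.00468), and LTearly and LTlate were each called higher than BMTGMP. Stfa1 and Stfa2, cystatins of a multigene cluster whose copies can share reads, averaged 244 and 87.6 CPM in LTearly, 414 and 175 CPM in LTlate and 311 and 43.7 CPM in BMTGMP, against 1.17 and 0.556 CPM in wtGMP.

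The sorted populations differed in the genes of the gates and in markers of later cells. Kit averaged 51.0 ± 28.6 CPM in LTearly, 22.4 ± 13.1 CPM in LTlate and 68.3 ± 23.6 CPM in BMTGMP, against 192 ± 35.2 CPM in wtGMP, and Cd34 32.2 ± 23.3, 113 ± 27.7 and 4.87 ± 1.91 CPM, against 248 ± 31.7 CPM in wtGMP (SD, n = 4, 3, 3 and 4). The Fc gamma receptor genes of the same gate were higher in LTlate. Fcgr3 averaged 325 ± 69.9, 418 ± 62.0 and 212 ± 68.1 CPM, against 257 ± 33.2 CPM in wtGMP, and Fcgr2b 122 ± 43.6, 155 ± 3.10 and 88.7 ± 20.6 CPM, against 86.5 ± 22.8 CPM. In LTlate they rose by 0.73 ± 0.21 and 0.87 ± 0.25 on the log2 scale (edgeR adjusted p = 0.0228 and 0.0220), and in LTearly and BMTGMP neither was called. Of the markers of the stem cell gate, Ly6a (Sca-1) averaged 5.63, 0.0864 and 1.56 CPM, against 0.156 CPM in wtGMP, and Slamf1 (Cd150) 0.936, 0 and 0.146 CPM, against 0 CPM in wtGMP. Ly6a ran from 1.50 to 16.7 CPM in LTearly, where every library was above the highest wtGMP library (0.624 CPM), and was at most 0.259 CPM in LTlate. These levels rest on few reads, with pooled Ly6a counts of 76 in LTearly, 3 in LTlate, 32 in BMTGMP and 2 in wtGMP. Ly6a was not called in LTearly (5.05 ± 2.25, edgeR adjusted p = 0.114). Cd48, which that gate excludes, averaged 23.7 CPM in LTearly, 39.4 in LTlate and 21.15 in BMTGMP, against 46.1 CPM in wtGMP. Itgam averaged 1328 ± 363, 1265 ± 290 and 483 ± 64.4 CPM, against 56.1 ± 17.5 CPM in wtGMP. The 5 mature neutrophil markers in the table, Itgam among them, summed to 1090 to 2998 CPM in LTearly, 1200 to 1899 in LTlate and 504 to 676 in BMTGMP, against 137 to 149 CPM in wtGMP. The 10 monocyte and macrophage markers summed to 653 to 1420 CPM in LTearly, 822 to 949 in LTlate and 386 to 758 in BMTGMP, against 652 to 740 CPM in wtGMP. B cell, erythroid and megakaryocyte markers summed to at most 30.9 CPM in every library of a group, and dendritic cell markers to at most 95.0 CPM. The part of these differences in the levels of the granule genes was not tested.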

How the data were processed

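RNA-seq libraries were made from 150 ng of total RNA, per the labels' protocols. The authors deposited 1 table of reads per RefSeq transcript, mapped to mm9 and allowed as many as 100 hits, per the file headers, with Bowtie 0.9.9.1 as the tool that the submitters' processing notes list. The deposited values are expected counts, since 13.75% are not whole (tolerance 1e-06), and carry no scaling; reads that hit several places were divided. Of 28847 transcripts 26092 matched a symbol (25973 in a RefSeq gene table, 119 in GENCODE); the rest held 3.51% to 4.16% of counts and were left out. Each of the 20453 genes took the values of the transcript whose mean count was highest, rounded to whole numbers. CPM is that count scaled to a common total of such counts. Another 1 column matches no sample and was not used. Of 105 library pairs 0 were identical.

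The 14 grouped libraries entered 1 fit with a mean per group in edgeR 4.0.16 (R 4.3.3): TMM scaling, filterByExpr, robust quasi-likelihood test, 2-sided, Benjamini-Hochberg adjusted p below 0.05 over 14542 genes. The common biological coefficient of variation was 0.748. A standard error is the size of the log2 fold change divided by the root of its F statistic. Recovery was tested on simulated data, with changes put into genes drawn at random from all those tested. Of 2-fold changes put in, 5% to 18% were called in a comparison, and of 4-fold changes 35% to 48%. A gene that was not called may therefore still differ. Depth was 2469452 to 15092528 counts per library. A floor is 3 counts in a library and covers counting error only.

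Alternatives were DESeq2 1.42.0, edgeR with median-ratio size factors, the fit limited to the 2 groups compared, no filter on low counts, a minimum of 1 CPM in at least 3 libraries, a replicate block, sums over a gene's transcripts, libraries thinned at random to 2469452 counts, and each library left out in turn. The genes named are the 10 listed and, from each related list, at most the 4 genes of lowest p in a comparison. Also named are cell type markers and the 3 nearest genes on each side of Elane, Mpo and Ctsg. For Mpo, Elane, Prtn3, Ctsg and Hp the 3 genes of most like pattern are named. Mettl9, Srgn, Spi1, Plac8, Mmp8, Retnlg, S100a8, S100a9 and Ltb4r1 were named after their values were seen. The 10 genes and the lists were chosen with earlier results of these data known. A gene of the list of other azurophil granule contents is included in its counts, and its own values are not reported here. Promoter sequences and annotation are from RefSeq on GRCm38.p6 and were not joined to mm9 coordinates.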

Additional observations from a re-analysis of the deposited data

Results flagged for a closer look

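In LTearly, Ms4a3 had 1 library far below the others, replicate 1 at 15.2 CPM, where the other 3 lay at 41.1 to 44.9 CPM. It was 1 of 20 combinations of gene and group examined in this way, and chance gives about 1 in 20. The same library was the lowest of its group for Mpo, Elane, Prtn3 and Ctsg.

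A difference between MLL-AF9 groups in their change against wtGMP was called for 5 values by edgeR, with adjustment over all genes. LTearly differed from BMTGMP by -1.78 at Elane, -1.53 at Ctsg, 0.88 at Hp and 2.39 at Ctsc on the log2 scale. LTlate differed from BMTGMP by -4.28 at Mpo.

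The library whose title and column name give different groups was used in no comparison. It had 819 CPM of Hp, 661 CPM of Serpinb1a and 1309 CPM of Igsf6, each above all 4 wtGMP libraries, whose highest values were 172, 309 and 815 CPM.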

How the results depend on the processing

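Of 899 recomputed values of single genes, 786 kept direction and side of the threshold, 57 lost and 35 gained a call, and 21 changed sign, none of them called. With only the 2 groups compared in the fit, the called genes of the 10 numbered 8 in LTlate against wtGMP (5 as reported), 6 in BMTGMP against wtGMP (3), 0 in LTearly against BMTGMP (4) and 5 in LTlate against BMTGMP (1), and the calls over all genes 2486 in LTlate against wtGMP (1549) and 407 in LTearly against BMTGMP (917). DESeq2 called 1 of the 10 in LTearly against LTlate (0) and 6 in LTlate against BMTGMP (1); over all genes it called 1423 in BMTGMP against wtGMP (947), 256 in LTearly against LTlate (38), 1494 in LTearly against BMTGMP (917) and 569 in LTlate against BMTGMP (303). Without a low-count filter 141 genes were called in LTearly against LTlate and 2 of the 10 in LTearly against BMTGMP. Summed transcripts gave 21 calls in LTearly against LTlate. In LTlate against BMTGMP thinning gave 3 of the 10, median-ratio factors 2 and the replicate block 2. For fits whose calls over all genes are not given here, the counts of the 10 have no background. The cause was not tested.

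Leaving out 1 library in turn gave 6 to 8 called genes of the 10 in LTearly, 3 to 4 in LTlate and 2 to 4 in BMTGMP against wtGMP, 0 to 0 in LTearly against LTlate, 1 to 6 in LTearly against BMTGMP and 0 to 2 in LTlate against BMTGMP. Over all genes it gave 2340 to 3178, 921 to 1333 and 686 to 891 calls against wtGMP, and 4 to 198, 583 to 1269 and 155 to 308 in the other 3.

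Sign changed, with no call on either side of 0, when single libraries were left out: in BMTGMP against wtGMP at Elane (-0.03 to 0.33) and Ms4a3 (-0.73 to 0.15), and in LTearly against LTlate at Elane (-0.70 to 0.18), Prtn3 (-0.10 to 0.47), Ctsg (-0.64 to 0.05), Ms4a3 (-0.21 to 0.41), Nkg7 (-0.74 to 0.45) and Serpinb1a (-0.12 to 0.25). In LTearly against LTlate it also changed at Nkg7 when thinned (0.34) and with the replicate block (0.04), and at Ctsc with the replicate block (-0.03).

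Replicate numbers did not pair the libraries: over 18 pairs with the same number, deviations from the group mean correlated at -0.162 to 0.115, 1 of them over 0.1. With the replicate block the called genes numbered 8, 4 and 2 against wtGMP and 0, 4 and 2 in the other comparisons. It lost Serpinb1a in LTlate (adjusted p = 0.111) and Nkg7 in BMTGMP (0.0998) against wtGMP and Elane in LTearly against BMTGMP (0.0600), and gained Prtn3 against BMTGMP in LTearly (0.00810) and LTlate (0.00937). The 2 pairs of LTearly and LTlate libraries with a shared gr code correlated at -0.016 and 0.081, a check chosen, as was the order per kilobase without single libraries, after seeing the data. Nkg7 had 0 to 113 counts a library and the largest standard errors of the 10 genes against wtGMP (1.11 to 1.36).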

Other observations

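In the library with conflicting labels, Mpo was at 2175 CPM, Elane at 514, Prtn3 at 99.0 and Ctsg at 353 CPM. Its ratio of Mpo to Elane counts was 4.23, and Mpo took 36.0% of the summed counts of the 10 genes. Ms4a3 was at 44.7, Nkg7 at 2.52 and Ctsc at 70.1 CPM. Its 13 specific and gelatinase granule genes summed to 32381 CPM and its mature neutrophil markers to 1892 CPM. Kit was at 48.2 CPM and Cd34 at 6.43 CPM, and its depth was 7927078 counts.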
